A study of Mus musculus with 2 samples.

Results

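Polycomb repressive complex genes encode the proteins that write, read and assist the repressive marks of Polycomb on histones. They were examined here in single cells of the mouse cerebral cortex at embryonic day (E) 16.5. The 10 genes *Ezh1*, *Ezh2*, *Eed*, *Suz12*, *Jarid2*, *Rnf2*, *Bmi1*, *Cbx2*, *Cbx5* and *Cbx7* were taken by symbol, and all 10 were found among the 32285 genes listed. Their unique molecular identifiers (UMIs, 1 per captured RNA molecule) were summed per library over the cells of each type. The cells came from 2 wild-type (WT) libraries, named replicate 1 and replicate 2, of control embryos from an *Eomes-Cre* line. Both libraries belong to the same group, so the comparisons are between cell types, and nothing in the labels says whether the libraries came from separate embryos.

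Polycomb repressive complex 2 (PRC2) places methyl groups on a lysine in the tail of histone H3, and Polycomb repressive complex 1 (PRC1) places ubiquitin on histone H2A. PRC2 is built from the methyltransferase EZH2 or its relative EZH1, together with EED, which reads the mark, and SUZ12, which holds the complex together. JARID2 is an accessory protein that helps to bring PRC2 to its targets. In PRC1, RNF2 is the ubiquitin ligase, BMI1 its partner, and CBX2 and CBX7 are alternative subunits that bind the mark left by PRC2. CBX5 shares the chromodomain but is heterochromatin protein 1 alpha (HP1α), which reads another histone mark and is not a subunit of either complex. In the developing cortex, *Ezh2* is known for its part in the timing of neurogenesis and *Bmi1* for its part in the self-renewal of neural stem cells.

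The cells were sorted into types by counting how many marker genes of each type had a UMI in a cell, and none of the 10 genes served as a marker. Of 9049 and 13556 barcodes in replicates 1 and 2, 5966 and 10247 were kept, with a median of 5706 and 4938 UMIs per cell. The gates took in 11 neural and 7 other types, and left 43.4% and 49.0% of the kept cells in no gate. Radial glial cell-like (RGC-like) cells are the stem cells of the ventricular zone, and intermediate progenitor cell-like (IPC-like) cells are their dividing daughters. Each was split into cycling and non-cycling cells by markers of S and G2M phase. The proliferation gene *Mki67* reached 246 and 232 counts per 1000000 (CPM) in the cycling RGC-like sums of replicates 1 and 2, against 2.22 and 5.56 in the non-cycling ones. *Mki67* is itself one of these markers, so this difference follows from the gate. Non-cycling RGC-like cells were few, 66 and 155 in replicates 1 and 2. In replicate 2, 2 of these cells were rich in *Ttr*, a gene of the choroid plexus, and leaving them out changed 1 call of the 10 genes in the comparisons that use this type, that of *Rnf2* given below. Summed over 6 mural cell markers, non-cycling RGC-like cells held 55.5 and 64.5 CPM, against 18.7 and 30.8 in cycling RGC-like, 6.96 and 7.81 in non-cycling IPC-like and 1.53 and 6.32 in upper-layer neuron-like cells, although *Kcnj8*, *Abcc9* and *Higd1b*, 3 of the 6, were at 0. Summed over 7 erythroid markers, they held 728 and 1626 CPM, against 437 and 927 in cycling RGC-like, 568 and 1084 in non-cycling IPC-like and 756 and 1351 in upper-layer neuron-like cells, with *Hbb-y* and *Hba-x* at 0 in the progenitors. The part of these markers in the results that use the non-cycling RGC-like sums was not tested. In all, 21 barcodes were kept in both libraries.

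**Figure D1:**
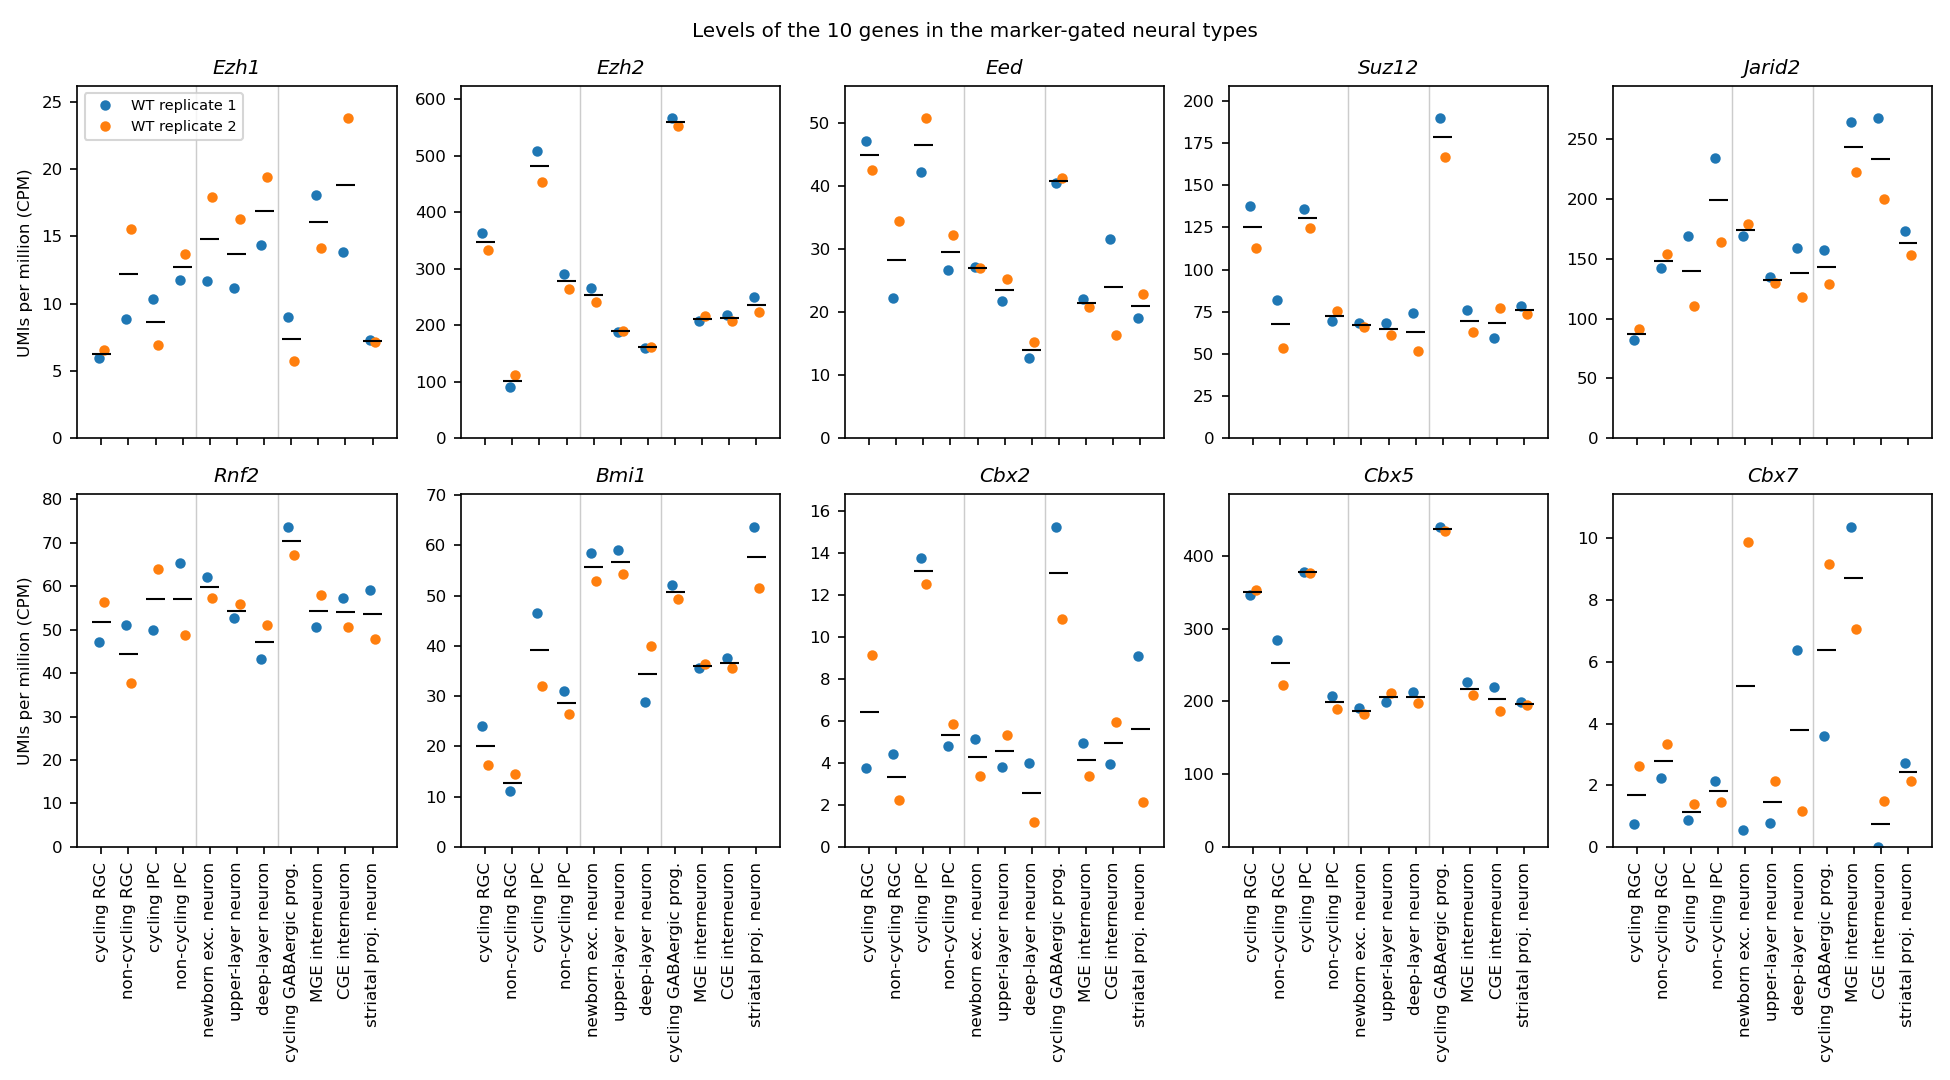
Levels of the 10 genes in 11 neural types, in UMIs as counts per 1000000 UMIs of the type's sum (CPM), each panel with its own axis from 0. Points are the 2 WT libraries and the bar is their mean. *Ezh2* stood at 559.6 ± 9.39 CPM (SD, n = 2) in cycling GABAergic progenitor-like cells and at 102 ± 15.0 CPM in non-cycling RGC-like cells, while *Rnf2* ranged only from 44.4 to 70.4 CPM.

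Every level below is UMIs of the gene per 1000000 UMIs of the type and library, without correction for transcript length, so levels were compared between types and not between genes. Between the highest and the lowest neural type, the mean level differed 5.50-fold for *Ezh2*, 4.51-fold for *Bmi1*, 3.31-fold for *Eed*, 3.002-fold for *Ezh1*, 2.83-fold for *Suz12*, 2.79-fold for *Jarid2*, 2.34-fold for *Cbx5* and 1.58-fold for *Rnf2*. For *Cbx2* the ratio was 5.08, but it rested on at most 50 UMIs per sum, and for *Cbx7* most sums held fewer than 10 UMIs. *Ezh2* was the gene whose types separated best: in 7 of the 10 steps down its order of neural types, the 2 libraries of one type both lay above the 2 of the next. For *Jarid2*, *Rnf2*, *Ezh1*, *Cbx2* and *Cbx7*, only 1 of the 10 steps was separated in this way.

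All positions are those of RefSeq on GRCm38.p6. *Ezh1* (101191115 to 101226463), *Suz12* (79993106 to 80034123) and *Cbx2* (119023019 to 119031275) lie on chromosome 11. *Eed* lies on chromosome 7 (89954654 to 89980976), *Jarid2* on chromosome 13 (44730774 to 44921643), *Rnf2* on chromosome 1 (151469398 to 151500991), *Bmi1* on chromosome 2 (18677018 to 18686629) and *Cbx7* on chromosome 15 (79915804 to 79971143). *Ezh2* overlaps *F830010H11Rik*, *Cbx2* overlaps *Gm35829* and *Cbx7* overlaps *Apobec3*, and reads in the shared stretches cannot be assigned from the counts alone.

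*Ezh2* lies on chromosome 6 (47530274 to 47595270) and *Cbx5* on chromosome 15 (103191546 to 103239904). Their promoters are shown because, of the 9 members with a promoter in the RefSeq tables, they were the 2 that held either E2F form searched on both strands, TTTGGCG or TTTCGCG. E2F factors are the classic activators of S phase genes, and whether they act on *Ezh2* or *Cbx5* was not tested. Each window runs from 250 bases before to 50 bases after the start of 1 RefSeq transcript on the minus strand, and the match is in capitals.

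*Ezh2*, chr6:47594981-47595280, minus strand: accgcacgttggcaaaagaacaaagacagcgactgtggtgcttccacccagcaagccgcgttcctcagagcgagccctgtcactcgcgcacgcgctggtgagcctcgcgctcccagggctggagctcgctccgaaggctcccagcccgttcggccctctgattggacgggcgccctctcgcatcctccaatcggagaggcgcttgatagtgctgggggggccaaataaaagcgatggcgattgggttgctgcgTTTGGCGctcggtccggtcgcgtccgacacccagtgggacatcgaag

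*Cbx5*, chr15:103239803-103240102, minus strand: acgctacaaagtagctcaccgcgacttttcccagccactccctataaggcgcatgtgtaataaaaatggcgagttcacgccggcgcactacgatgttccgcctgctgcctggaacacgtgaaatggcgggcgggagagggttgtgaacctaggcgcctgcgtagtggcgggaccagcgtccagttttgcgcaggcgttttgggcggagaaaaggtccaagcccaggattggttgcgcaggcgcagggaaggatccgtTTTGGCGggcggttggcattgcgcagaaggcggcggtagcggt

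In both, TTTGGCG stood just after the start of the transcript, at base 4 in *Ezh2* and base 8 in *Cbx5*, counting the first transcribed base as 1. Of 32851 promoters of the same length, 1.56% held TTTGGCG, 0.849% held TTTCGCG and 2.37% held either. Both forms contain a CpG, and the *Ezh2* and *Cbx5* windows held 31 and 29 CpGs, against a median of 7 over all promoters, so these shares are not matched for CpG content. A second *Cbx5* window held neither form, nor did the windows of *Suz12*, *Jarid2* and *Eed*, which like *Ezh2* and *Cbx5* differed with the cell cycle. The cell-cycle element TTTGAA was found in *Eed*, *Suz12* and *Cbx7* and in 17.9% of all promoters. These are matches of letters only, and binding was not measured.

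The first comparison asked how the 10 genes differ with the cell cycle in RGC-like cells. The methyltransferase gene *Ezh2* and the scaffold gene *Suz12* were higher in the cycling cells, HP1α gene *Cbx5* was also higher, and the recruitment gene *Jarid2* was lower. These 4 of 10 genes passed edgeR's quasi-likelihood test at a Benjamini-Hochberg adjusted p under 0.05, where 13.7% of all 14855 genes tested did so. By direction, 3 were higher, against 7.09% of all genes, and 1 was lower, against 6.64%.

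*Ezh2* stood at 363 and 333 CPM in the cycling RGC-like sums of replicates 1 and 2 and at 91.1 and 112 CPM in the non-cycling ones. Both cycling sums lay above both non-cycling sums, and the fitted difference was 3.32-fold (log2 fold change 1.73 ± 0.16 (SE), adjusted p = 4.96e-12). It was the largest change of the 10 genes in this comparison. *Suz12* was at 138 and 113 CPM against 82.2 and 53.4 CPM, again without overlap (log2 fold change 0.96 ± 0.19 (SE), adjusted p = 0.000271). *Jarid2* moved the other way, from 142 and 153 CPM in non-cycling to 82.4 and 91.6 CPM in cycling cells (log2 fold change -0.79 ± 0.19 (SE), adjusted p = 0.00239), and its groups did not overlap either. *Cbx5* was at 347 and 353 CPM in cycling and 284 and 222 CPM in non-cycling cells (log2 fold change 0.51 ± 0.13 (SE), adjusted p = 0.00621).

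Of the PRC2 genes, *Eed* had a log2 fold change of 0.58 ± 0.28 (SE), adjusted p = 0.178, and *Ezh1*, the relative best known from non-dividing cells, one of -1.03 ± 0.53 (SE), adjusted p = 0.218, and neither passed. None of the 4 PRC1 genes passed: the 95% interval of the log2 fold change ran from -0.19 to 0.79 for *Rnf2*, from -0.21 to 1.35 for *Bmi1*, from -0.55 to 2.79 for *Cbx2* and from -3.33 to 1.95 for *Cbx7*. Cycling RGC-like cells had more UMIs, with a median of 9826 and 6671 per cell against 5585 and 5191. The gate itself asks for at least 5 S or at least 5 G2M markers with a UMI in a cycling cell. A non-cycling cell may have at most 3 S and 2 G2M markers, so cells with many UMIs pass more easily as cycling. Thinning followed the gate and leaves this selection in place. With every cell thinned to 1500 UMIs, *Ezh2* kept a log2 fold change of 1.21 (adjusted p = 0.00037), and *Suz12* was at 0.54 (adjusted p = 0.548), *Jarid2* at -0.67 (adjusted p = 0.265) and *Cbx5* at 0.46 (adjusted p = 0.302). These 3 kept their direction but no longer passed, and the share of all genes called was then 5.63%.

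In IPC-like cells the same comparison gave 5 of 10 genes, where 15.6% of all genes passed. *Ezh2*, *Suz12*, *Eed* and *Cbx5* were higher in cycling cells, against 7.78% of all genes, and *Jarid2* was lower, against 7.82%. DESeq2 called 8.15% of all genes higher and 5.24% lower here. *Ezh2* stood at 509 and 454 CPM in the cycling sums and 291 and 264 CPM in the others (log2 fold change 0.73 ± 0.11 (SE), adjusted p = 2.47e-06). *Suz12* was at 136 and 125 CPM against 69.6 and 75.7 CPM (log2 fold change 0.78 ± 0.15 (SE), adjusted p = 0.000121). *Eed*, the gene of the subunit that reads the mark, was at 42.2 and 50.8 CPM against 26.8 and 32.2 CPM (log2 fold change 0.60 ± 0.21 (SE), adjusted p = 0.0477). For all of these the cycling sums lay above the non-cycling ones in both libraries, but the call of *Eed* sat at the threshold and was lost under 6 of the alternatives.

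*Cbx5* was at 378 and 377 CPM in the cycling sums and 208 and 190.0 CPM in the others, and the libraries of each type lay close together (log2 fold change 0.87 ± 0.12 (SE), adjusted p = 1.99e-07). *Jarid2* was at 169 and 111 CPM against 234 and 164 CPM, and these ranges overlapped, with replicate 1 higher than replicate 2 in both types (log2 fold change -0.57 ± 0.15 (SE), adjusted p = 0.00439). With the stricter gate *Jarid2* no longer passed, at -0.28 (adjusted p = 0.28). *Cbx2*, with 16 and 18 UMIs in cycling and 9 and 12 in non-cycling cells, was at 13.8 and 12.5 CPM against 4.82 and 5.86 CPM and did not pass (log2 fold change 1.22 ± 0.48 (SE), adjusted p = 0.0819), but passed when only the compared types were fitted, at 1.32 (adjusted p = 0.0191). Thinned to 1500 UMIs per cell, *Suz12* and *Cbx5* still passed, and *Ezh2*, at 0.52 (adjusted p = 0.0951), *Eed*, at 0.35 (adjusted p = 0.83), and *Jarid2*, at -0.37 (adjusted p = 0.533), did not. *Rnf2* had a log2 fold change of -0.04, with a 95% interval from -0.40 to 0.32.

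The cycling difference itself was then compared between RGC-like and IPC-like cells. *Ezh2* was the 1 member of 10 that passed, where 0.633% of all genes did, 0.175% with a larger and 0.458% with a smaller difference in RGC-like cells (0.128% and 0.693% with DESeq2). Its cycling difference was larger in RGC-like than in IPC-like cells by 0.995 ± 0.20 (SE), adjusted p = 0.00514 on the log2 scale. The difference was larger in both libraries, by 1.26 and 0.83 in replicates 1 and 2. The levels show where it lay: among cycling cells *Ezh2* was lower in RGC-like than in IPC-like sums, and among non-cycling cells the RGC-like sums were lower still. *Cbx5* had the opposite sign, -0.36 ± 0.18 (SE), adjusted p = 0.554, and did not pass, and for *Suz12* the 95% interval of the difference ran from -0.32 to 0.69. Thinned to 1500 UMIs per cell, the difference of *Ezh2* was 0.69 (adjusted p = 0.797) and did not pass.

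**Figure D2:**
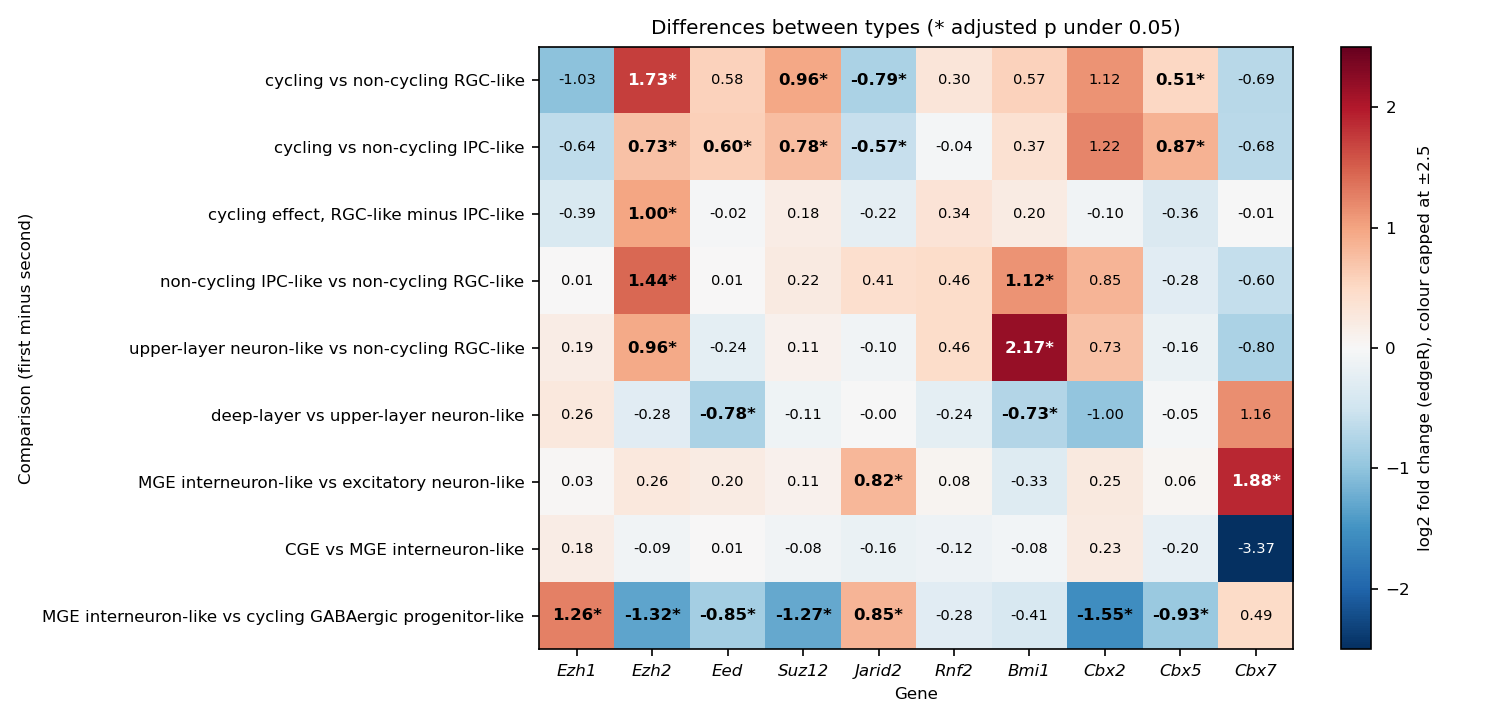
Log2 fold changes of the 10 genes (columns) in the 9 comparisons (rows), each the first type minus the second, from edgeR. Red is higher and blue is lower, and an asterisk marks an adjusted p under 0.05. *Ezh2* was called in 6 of 9 comparisons and *Rnf2* in 0, by the main test.

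Cycling cells were also divided by whether S phase or G2M phase markers led, as a description without a test. *Ezh2* was at 299 and 321 CPM in S-leading and 406 and 345 CPM in G2M-leading RGC-like cells. In IPC-like cells it was at 352 and 421 CPM in S-leading and 626 and 485 CPM in G2M-leading cells. *Ezh2* was thus somewhat higher in the G2M-leading sums of both progenitors, and all 4 phase sums of RGC-like cells lay far above the non-cycling ones. *Suz12* and *Jarid2* were also higher in the G2M-leading sums in both libraries of both progenitors, *Jarid2* at 86.7 and 108 CPM against 77.0 and 74.0 CPM in RGC-like cells. *Cbx5* showed no such order in RGC-like cells, with 374 and 348 CPM in S-leading and 329 and 359 CPM in G2M-leading cells.

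The next comparisons followed the excitatory lineage from non-cycling RGC-like cells to non-cycling IPC-like cells and to upper-layer neuron-like cells, the later-born projection neurons. *Ezh2* and the PRC1 gene *Bmi1* were higher in both of the later types. In non-cycling IPC-like against non-cycling RGC-like cells, these were 2 of 10 genes, where 25.7% of all genes passed, 10.8% higher and 14.9% lower (7.87% and 16.7% with DESeq2). In upper-layer neuron-like against non-cycling RGC-like cells they were again 2 of 10, where 39.6% of all genes passed, 18.6% higher and 21% lower (13.7% and 23.6% with DESeq2). Both shares lie below that of all genes, and both comparisons use the same RGC-like sums.

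In IPC-like cells out of cycle *Ezh2* was at 291 and 264 CPM, above both libraries of non-cycling RGC-like cells (log2 fold change 1.44 ± 0.16 (SE), adjusted p = 3.43e-10). It then stood at 265 and 241 CPM in newborn excitatory neuron-like, 189 and 191 CPM in upper-layer and 161 and 161 CPM in deep-layer neuron-like cells. The non-cycling RGC-like sums were thus the lowest of the lineage, and upper-layer neuron-like cells remained above them (log2 fold change 0.96 ± 0.15 (SE), adjusted p = 1.24e-06). *Bmi1*, which in stem cells represses cell-cycle inhibitors, was at 11.1 and 14.4 CPM in non-cycling RGC-like cells, from 5 and 13 UMIs. It was at 24.0 and 16.4 CPM in cycling RGC-like cells and at 31.0 and 26.4 CPM in the IPC-like ones (log2 fold change against non-cycling RGC-like 1.12 ± 0.35 (SE), adjusted p = 0.0123). Thinned to 1500 UMIs per cell, this difference was 0.55 (adjusted p = 0.719) and did not pass. In upper-layer neuron-like cells *Bmi1* reached 59.0 and 54.4 CPM, 4.50-fold the RGC-like level (log2 fold change 2.17 ± 0.29 (SE), adjusted p = 1.96e-08).

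The neuronal *Bmi1* sums did not overlap with any RGC-like sum, and newborn excitatory neuron-like cells, at 58.5 and 53.0 CPM, were close to the upper-layer ones. *Jarid2* was at 234 and 164 CPM in the non-cycling IPC-like sums against 142 and 153 CPM in the RGC-like ones and did not pass (log2 fold change 0.41 ± 0.17 (SE), adjusted p = 0.0635), but did under 4 alternatives. For *Eed* the 95% interval of the log2 fold change between upper-layer neuron-like and non-cycling RGC-like cells ran from -0.78 to 0.29, for *Suz12* from -0.27 to 0.49 and for *Ezh1* from -0.62 to 1.004. *Rnf2*, the ligase gene, was at 52.7 and 55.9 CPM in upper-layer neuron-like cells against 51.1 and 37.8 CPM and did not pass (log2 fold change 0.46 ± 0.21 (SE), adjusted p = 0.0854), and passed without the *Ttr*-rich cells, at 0.59 (adjusted p = 0.0266). *Cbx5* did not pass in either comparison with edgeR, and passed in both with DESeq2, at -0.39 (adjusted p = 0.00871) in IPC-like and -0.30 (adjusted p = 0.028) in upper-layer neuron-like cells. With DESeq2, which changes both the scaling and the model, the median of all genes was lower by 0.12 and 0.17 in these comparisons than with edgeR.

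Between deep-layer and upper-layer neuron-like cells, *Eed* and *Bmi1* were lower in the deep-layer cells, 2 of 10 genes where 16.7% of all genes passed, 8.14% higher and 8.54% lower (9.05% and 4.05% with DESeq2). *Bmi1* was at 28.8 and 40.0 CPM in deep-layer against 59.0 and 54.4 CPM in upper-layer neuron-like cells, without overlap (log2 fold change -0.73 ± 0.17 (SE), adjusted p = 0.00126). *Eed* was at 12.8 and 15.3 CPM against 21.9 and 25.3 CPM, from 16 and 26 UMIs in the deep-layer sums, also without overlap (log2 fold change -0.78 ± 0.24 (SE), adjusted p = 0.0201). The call of *Eed* was lost with DESeq2, at -0.64 (adjusted p = 0.113), and with the 5% mitochondrial limit, at -0.52 (adjusted p = 0.322). Thinned to 1500 UMIs per cell, neither gene passed, *Bmi1* at -0.75 (adjusted p = 0.223) and *Eed* at -1.04 (adjusted p = 0.291). *Suz12* had a 95% interval from -0.41 to 0.19 and *Jarid2* one from -0.28 to 0.28.

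In the inhibitory lineage, interneuron-like cells of the medial ganglionic eminence (MGE) were compared with cycling GABAergic progenitor-like cells. Here 7 of 10 genes passed, where 42.7% of all genes did: *Ezh2*, *Eed*, *Suz12*, *Cbx2* and *Cbx5* were lower in the interneurons, against 20.3% of all genes, and *Ezh1* and *Jarid2* were higher, against 22.5%. All 5 PRC2 genes thus differed, the 3 core genes *Ezh2*, *Eed* and *Suz12* in one direction and *Ezh1* and *Jarid2* in the other. Dividing cells are set against post-mitotic ones here, so that cell cycle and differentiation cannot be told apart. Summed over 7 erythroid markers, MGE interneuron-like cells held 1341 and 2406 CPM, against 910 and 863 in the progenitors. Summed over 7 Cajal-Retzius cell markers they held 184 and 193 CPM, against 18.9 and 33.8, although *Lhx1* and *Ebf3* were at 0 in the interneurons. The part of these markers in the results was not tested.

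*Ezh2* fell from 566 and 553 CPM in the progenitors, its highest level in any type, to 207 and 217 CPM in MGE interneuron-like cells (log2 fold change -1.32 ± 0.11 (SE), adjusted p = 1.51e-13). *Suz12* fell from 189.6 and 167 to 76.3 and 63.3 CPM (log2 fold change -1.27 ± 0.14 (SE), adjusted p = 1.42e-10). *Eed* fell from 40.4 and 41.3 to 22.1 and 20.9 CPM (log2 fold change -0.85 ± 0.22 (SE), adjusted p = 0.00134). In each case the libraries differed far less than the types.

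*Ezh1* rose from 8.99 and 5.73 CPM, 10 UMIs in each library, to 18.1 and 14.1 CPM (log2 fold change 1.26 ± 0.39 (SE), adjusted p = 0.00788). *Jarid2* rose from 157 and 129 to 264 and 222 CPM (log2 fold change 0.85 ± 0.14 (SE), adjusted p = 2.60e-06). The rise of *Ezh1* was not called when cells over 5% mitochondrial UMIs were left out, at 0.995 (adjusted p = 0.0542). *Cbx2*, from 17 and 19 UMIs in the progenitors and 11 and 10 in the interneurons, fell from 15.3 and 10.9 to 4.97 and 3.36 CPM (log2 fold change -1.55 ± 0.47 (SE), adjusted p = 0.00713). *Cbx5* fell from 440.4 and 434 to 227 and 208 CPM (log2 fold change -0.93 ± 0.11 (SE), adjusted p = 3.67e-09). *Rnf2* and *Bmi1* did not pass, with 95% intervals from -0.61 to 0.06 and from -0.78 to -0.03. The progenitors had a median of 8649 and 7424 UMIs per cell and the interneurons 3261 and 3552. With every cell thinned to 1500 UMIs, *Ezh2*, *Suz12*, *Cbx5*, *Jarid2* and *Ezh1* still passed, *Ezh2* at -1.22 (adjusted p = 4.87e-13), while *Eed* did not, at -0.28 (adjusted p = 0.712), *Cbx2* had too few UMIs to be tested, and *Rnf2* passed, at -0.87 (adjusted p = 0.0157).

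MGE interneuron-like cells were then set against the excitatory neurons, taken as the average of the upper-layer and deep-layer neuron-like sums. *Jarid2* and *Cbx7* were higher in the interneurons, 2 of 10 genes where 26.5% of all genes passed, 14.6% higher and 12% lower. *Jarid2* was at 264 and 222 CPM in MGE interneuron-like cells, against 134 and 129.5 CPM in upper-layer and 158 and 118 CPM in deep-layer neuron-like cells. Both interneuron sums lay above all 4 excitatory sums (log2 fold change 0.82 ± 0.11 (SE), adjusted p = 5.54e-08), and this call held in all of the alternatives that gave a test. *Ezh2* was close to the threshold, at 0.26 ± 0.10 (SE), adjusted p = 0.0513, and passed under 5 alternatives, DESeq2 among them. *Bmi1* had a log2 fold change of -0.33 ± 0.15 (SE), adjusted p = 0.107 and did not pass. The erythroid markers, at 1341 and 2406 CPM in MGE interneuron-like cells, were at 756 and 1351 in upper-layer and 669 and 963 in deep-layer neuron-like cells. The Cajal-Retzius cell markers, at 184 and 193 CPM in MGE interneuron-like cells, were at 25.8 and 20.3 and at 37.6 and 30.6 there. The part of these markers in the results was not tested.

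The call of *Cbx7* rested on few UMIs in few cells. MGE interneuron-like cells held 23 and 21 UMIs in replicates 1 and 2, 10.4 and 7.07 CPM, and the upper-layer neuron-like cells 5 and 20, 0.764 and 2.14 CPM (log2 fold change against the excitatory average 1.88 ± 0.57 (SE), adjusted p = 0.0103). In replicate 1, 15 of the 23 UMIs came from 1 cell. Single cells also held 5 of the 8 UMIs in deep-layer neuron-like cells of replicate 1, 12 of the 16 in cycling GABAergic progenitor-like cells of replicate 2 and 32 of the 38 in newborn excitatory neuron-like cells of replicate 2. Without the cells that held 5 or more *Cbx7* UMIs, a setting chosen after the values were seen, the difference was 1.44 (adjusted p = 0.0588). It was also lost with DESeq2, at 1.88 (adjusted p = 0.131), and with the stricter gate, at 1.07 (adjusted p = 0.246). For these reasons, and for its overlap with *Apobec3*, the value of *Cbx7* is uncertain.

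Interneuron-like cells of the caudal ganglionic eminence (CGE) did not differ from MGE interneuron-like cells by the test in any of the 10 genes. edgeR called 0 of 10, where 5.18% of all genes passed, 1.97% higher and 3.2% lower (2.34% and 1.74% with DESeq2). DESeq2 also called 0, and 1 gene, *Cbx7*, had an unadjusted p under 0.05 with edgeR. *Ezh2* was at 218 and 208 CPM in CGE and 207 and 217 CPM in MGE interneuron-like cells, and the 95% interval of the log2 fold change ran from -0.37 to 0.19. *Jarid2* was at 267 and 199 CPM in CGE interneuron-like cells, with an interval from -0.47 to 0.14. These intervals leave room for differences of the size of the interval ends. *Cbx7* had 0 and 1 UMIs in CGE interneuron-like cells, where 3 UMIs would correspond to 5.93 and 4.46 CPM.

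The balance of the 2 methyltransferases was described by the share of *Ezh2* among the UMIs of *Ezh1* and *Ezh2*. The share was compared between types only, since both genes are counted without correction for length. In cycling RGC-like cells *Ezh2* held 98.4% and 98.1% in replicates 1 and 2, and in non-cycling RGC-like cells 91.1% and 87.8%. The exact 95% binomial interval of the first was 96.8 to 99.3% and 96.5 to 99.1%, and that of the second 78.8 to 97.5% and 80.4 to 93.2%, so the intervals overlapped in replicate 1 and not in replicate 2. They cover counting error only. Cycling IPC-like and cycling GABAergic progenitor-like cells had shares of 98.0% and 98.5% and of 98.4% and 99.0%.

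Among the post-mitotic types, the share was 95.8% and 93.1% in newborn excitatory, 94.4% and 92.1% in upper-layer and 91.8% and 89.3% in deep-layer neuron-like cells. MGE interneuron-like cells had 92.0% and 93.9%, and striatal projection neuron-like cells had a share close to that of the cycling cells, 97.2% and 96.9%. The lowest of the 6 sums of the 3 cycling types was at 98.0%, and the 16 sums of the other neural types lay below it. *Ezh1* alone ranged from 5.99 and 6.54 CPM in cycling RGC-like to 13.8 and 23.8 CPM in CGE interneuron-like cells. Microglia-like cells, outside the neural types, had the lowest share of the 18 types, 80.0% and 70.0%, from 15 and 60 UMIs.

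**Figure D3:**
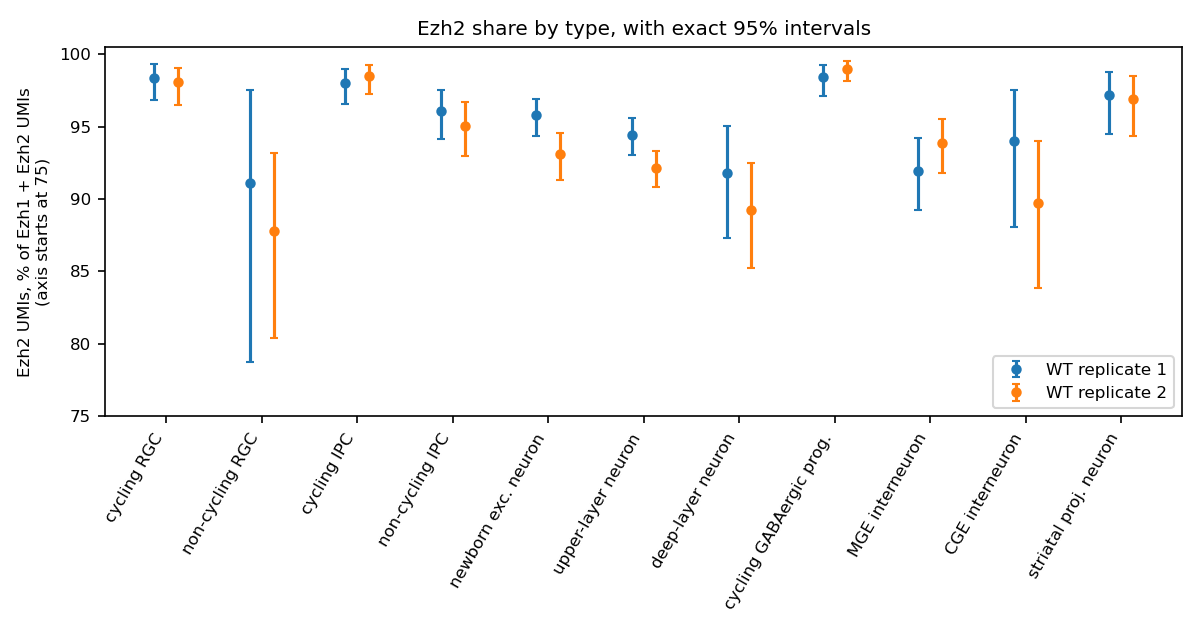
Share of *Ezh2* among *Ezh1* and *Ezh2* UMIs in the 11 neural types, in percent, on an axis that starts at 75. Points are the 2 WT libraries and bars their exact 95% binomial intervals. The 3 cycling types sit at the top of the axis, at or above 98.0%, and deep-layer neuron-like cells at 90.5 ± 1.79% (SD, n = 2).

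Other genes of the pathway were counted by lists of known subunits. Of 9 other PRC2 genes, 8 were tested. In cycling RGC-like cells, against non-cycling ones, 2 of them were higher and 0 lower, where 7.09% of all genes were higher and 6.64% lower, and the median log2 fold change of the list was 0.41, against -0.07 over all genes. The called genes were the histone chaperones *Rbbp7*, at 149.8 and 148 CPM against 66.6 and 84.5 CPM (log2 fold change 0.94, adjusted p = 7.01e-05), and *Rbbp4* (log2 fold change 0.88, adjusted p = 4.25e-05), which also serve outside PRC2. In non-cycling IPC-like against RGC-like cells *Mtf2* rose, from 62.2 and 56.7 to 141 and 123 CPM (log2 fold change 1.19, adjusted p = 3.11e-06), and *Aebp2* fell, from 55.5 and 61.1 to 31.0 and 27.8 CPM (log2 fold change -0.97, adjusted p = 0.00108). MTF2 and AEBP2 belong to alternative forms of PRC2. In that comparison 3 of the 8 genes were higher and 2 lower, where 10.8% of all genes were higher and 14.9% lower.

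Of the 23 other PRC1 genes, all 23 were tested. With the cell cycle, none passed in RGC-like cells and 1 did in IPC-like cells, where 13.7% and 15.6% of all genes did. Between non-cycling IPC-like and non-cycling RGC-like cells 6 were higher and 2 lower, where 10.8% and 14.9% of all genes were. Between upper-layer neuron-like and non-cycling RGC-like cells 8 were higher and 1 lower, where 18.6% and 21% of all genes were, so that the share called in either direction was close to that of all genes. *Pcgf5*, whose protein takes the place of BMI1 in variant PRC1, was at 82.2 and 72.2 CPM in non-cycling RGC-like, 12.3 and 7.81 CPM in non-cycling IPC-like and 2.90 and 3.10 CPM in upper-layer neuron-like cells. This was the largest fall of the list in both comparisons, with log2 fold changes of -2.89 ± 0.30 (SE), adjusted p = 1.45e-10 and of -4.52 ± 0.29 (SE), adjusted p = 2.03e-17. It ran against *Bmi1*, which rose over the same types. In the inhibitory lineage *Pcgf5* also fell, from 46.7 and 40.1 CPM in the cycling progenitors to 3.16 and 5.38 CPM in MGE interneuron-like cells (log2 fold change -3.18, adjusted p = 2.77e-11). *Bmi1* had the same sign there and did not pass (log2 fold change -0.41 ± 0.18 (SE), adjusted p = 0.0723).

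*Rybp*, which encodes a subunit of variant PRC1, went from 31.1 and 27.8 CPM in non-cycling RGC-like to 131 and 114 CPM in IPC-like cells out of cycle (log2 fold change 2.10, adjusted p = 2.48e-10). *Auts2*, which binds variant PRC1 in neurons, went from 1026 and 977 to 3027 and 2876 CPM (log2 fold change 1.60, adjusted p = 4.38e-10). *Kdm2b*, which targets a variant PRC1 to CpG islands, was at 48.9 and 41.1 CPM in non-cycling RGC-like and 107 and 112 CPM in upper-layer neuron-like cells (log2 fold change 1.41, adjusted p = 1.74e-08). *Bcor*, of the same variant complex, was the 1 gene of the 23 called between CGE and MGE interneuron-like cells, where 5.18% of all genes were, at 49.5 and 53.5 CPM against 91.2 and 83.8 CPM (log2 fold change -0.84, adjusted p = 0.00586).

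The other HP1 genes were called together with *Cbx5* where cycling cells were compared. *Cbx1*, *Cbx3* and *Cbx5* were all called higher, 3 of 3, in cycling RGC-like and in cycling IPC-like cells, and lower, 3 of 3, in MGE interneuron-like against cycling GABAergic progenitor-like cells. Of all genes, 7.09%, 7.78% and 20.3% were called in these directions. *Cbx3* was at 561 and 574 CPM in cycling and 329 and 378 CPM in non-cycling RGC-like cells (log2 fold change 0.69, adjusted p = 5.40e-05).

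Of the 6 genes that oppose Polycomb marks, 2 were higher and 0 lower in non-cycling IPC-like against non-cycling RGC-like cells, where 10.8% and 14.9% of all genes were. In upper-layer neuron-like against non-cycling RGC-like cells 2 were higher and 2 lower, where 18.6% and 21% of all genes were. The lower ones were *Kdm6a*, another demethylase of the PRC2 mark (log2 fold change -0.95, adjusted p = 1.85e-06), and *Asxl2* (log2 fold change -0.89, adjusted p = 5.94e-05). In cycling cells 0 were higher and 2 lower in the RGC-like comparison, where 7.09% and 6.64% of all genes were, and 0 higher and 1 lower in the IPC-like one, where 7.78% and 7.82% were. *Asxl3*, a partner of the H2A deubiquitinase, rose from 8.88 and 13.3 CPM in non-cycling RGC-like to 112 and 113 CPM in non-cycling IPC-like and 239 and 236 CPM in upper-layer neuron-like cells (log2 fold changes 3.27 ± 0.31 (SE), adjusted p = 1.32e-11, and 4.41 ± 0.27 (SE), adjusted p = 2.43e-18). *Kdm6b*, a demethylase of the PRC2 mark, was higher in upper-layer neuron-like cells (log2 fold change 1.13, adjusted p = 4.76e-05) and lower in cycling cells: 26.7 and 30.6 CPM against 76.5 and 70.3 CPM in IPC-like cells (log2 fold change -1.40, adjusted p = 7.28e-07) and 15.7 and 20.9 CPM against 28.9 and 37.8 CPM in RGC-like cells (log2 fold change -0.91, adjusted p = 0.0467). *Kdm6a* was the other gene called lower in cycling RGC-like cells (log2 fold change -0.52, adjusted p = 0.0319). In both progenitors the *Kdm6b* sums of the cycling and non-cycling cells did not overlap. In MGE interneuron-like against excitatory neuron-like cells 4 of the 6 genes were higher and 0 lower, where 14.6% and 12% of all genes were. Against cycling GABAergic progenitor-like cells 2 were higher and 2 lower, where 22.5% and 20.3% were. In deep-layer against upper-layer neuron-like cells 0 were higher and 1 lower, where 8.14% and 8.54% were.

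**Figure D4:**
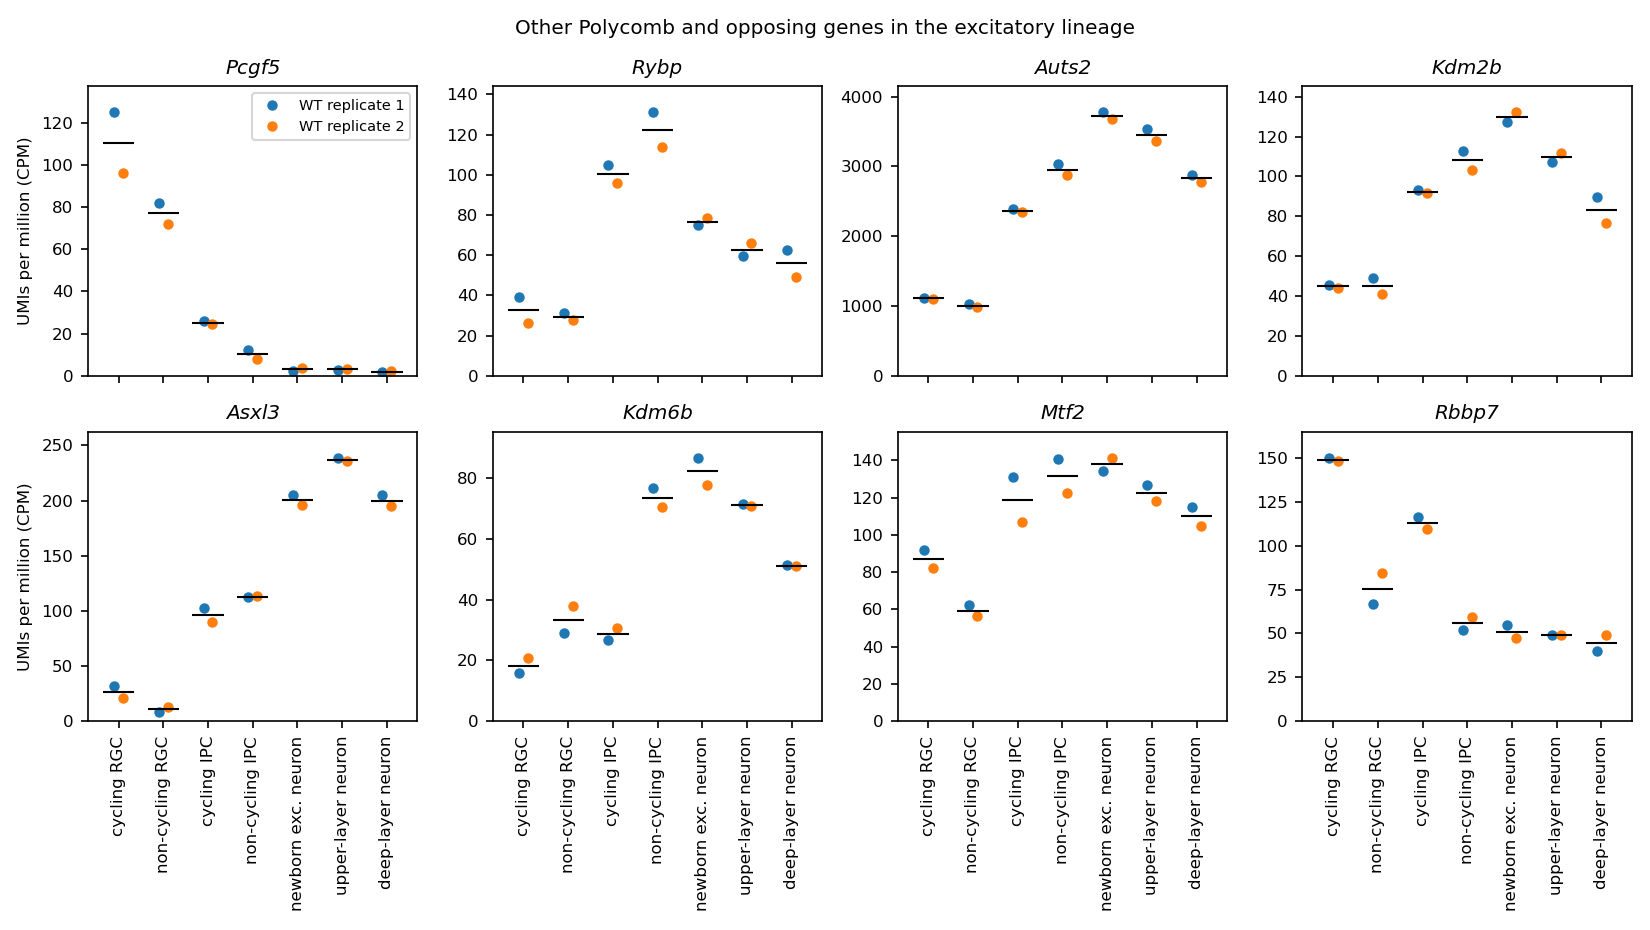
Levels of 8 other genes of the pathway in the 7 types of the excitatory lineage, in CPM on an axis from 0 for each gene. Points are the 2 WT libraries and bars their mean. *Pcgf5* fell from 77.2 CPM in non-cycling RGC-like to 3.004 CPM in upper-layer neuron-like cells, and *Asxl3* rose from 11.1 to 237 CPM.

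The *Hox* genes are known to be kept silent by Polycomb in the forebrain. All 39 together had 6 UMIs among the 48812576 UMIs of the neural types in both libraries, 0.123 CPM, from 5 genes. In upper-layer neuron-like cells they had 1 and 3 UMIs, and in RGC-like and IPC-like cells 0, where 3 UMIs in the non-cycling RGC-like sums would be 6.66 and 3.33 CPM. *Cdkn2a* and *Cdkn2b*, the cell-cycle inhibitor genes that BMI1 represses, had 34 UMIs in the neural types. Of these, 8 and 3 came from cycling and 4 and 5 from non-cycling RGC-like cells, and 2 and 6 from cycling GABAergic progenitor-like cells. None of these genes had enough UMIs to be tested.

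Genes whose levels followed those of a member over the 36 sums of type and library were listed as a description, out of 7196 genes with a mean of at least 20 CPM that marked no type or cycle state. The sums share libraries and types and are not independent. The erythroid-like sums are among them. *Ezh2* stood there at 18.3 and 36.7 CPM and *Ezh1* at 2.03 and 2.23 CPM, the lowest level of each in any type. The part of these sums in the r values was not tested, so a high r need not be particular to a member. The genes most like *Ezh2* were *Hnrnpab* (Pearson r = 0.95), *Smarcc1* (0.94), *Nono* (0.94), *Hnrnph1* (0.94) and *Ctcf* (0.94), which encode RNA-binding and chromatin proteins. For *Cbx2* they were *Fbxo45* (r = 0.82) and *Hmgb3* (0.82). *Ezh1* was most like *Clk1* (r = 0.82) and *Rnasek* (0.79), and *Cbx7*, with its few UMIs, reached an r of 0.60 at most, with *Wsb1*.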

How the data were processed

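Single-cell RNA-seq of E16.5 cerebral cortex was analysed in 2 WT libraries. The authors deposited raw UMI counts per gene and barcode, aligned to mm10 with Cell Ranger 7.0.0 per the submitters' processing notes (7.1.0 per the matrix headers); whether intronic reads were counted was not given in the sources used here. Cells with 1500 to 60000 UMIs and under 10% mitochondrial UMIs were kept (16213 in all; 39274402 and 59319842 UMIs). Types were set by marker gates, with no cell in 2 gates. Doublets were scored with Scrublet (scanpy 1.11.5), whose own threshold marked 0 and 345 cells; none were removed, except in an alternative that took out the highest scores.

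Counts were summed per type and library (36 sums) and fitted in 1 model with edgeR 4.0.16 (TMM, quasi-likelihood test, library as a block, genes with at least 10 counts in 2 sums), with Benjamini-Hochberg adjustment over 14855 genes; 9 comparisons were made, and they share sums. The library block uses that the types compared come from the same libraries. DESeq2 1.42.0 and other cell sets served as alternatives. Named genes were all 10 members and, of each list, at most the 4 called genes of largest change. The members and lists were chosen with earlier results of these data known. Since nothing says that the libraries come from separate embryos, p-values cannot be taken to measure a spread between embryos. With the library block, they measure the spread that remains between the 2 sums of a type. This spread is estimated over all neural and other types together, and not from the compared types alone. Gene positions and promoters are from RefSeq (GRCm38.p6).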

Additional observations from a re-analysis of the deposited data

Results flagged for a closer look

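The cycling difference of *Ezh2* was flagged because it differed between 2 progenitor types under the same contrast, by a test of the difference itself. It was larger in RGC-like than in IPC-like cells by 0.995 ± 0.20 (SE), adjusted p = 0.00514 on the log2 scale (edgeR with Benjamini-Hochberg adjustment), in 2 of 2 libraries. In RGC-like cells the sums went from 91.1 and 112 CPM in non-cycling to 363 and 333 CPM in cycling cells, and in IPC-like cells from 291 and 264 to 509 and 454 CPM. The value ranged from 0.69 to 1.04 over the alternatives that gave a test, and the adjusted p from 0.000619 to 0.797, the highest when every cell was thinned to 1500 UMIs. Without the *Ttr*-rich cells it was 0.99 (adjusted p = 0.00542). Non-cycling RGC-like cells had a median of 5585 and 5191 UMIs, cycling RGC-like cells 9826 and 6671, non-cycling IPC-like cells 7980 and 6882 and cycling IPC-like cells 11330 and 8624. The part of this depth in the difference was not tested beyond the thinned value, and thinning followed the gating by cycle markers.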

How the results depend on the processing

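Of the 25 calls, none changed direction in 298 values under alternatives. These include the values with a library left out, which have no test and cannot show whether a call holds. Of the values with a library left out, 14 moved by more than the spread between libraries. Among the remaining values, which have a test, 23 no longer passed. Thinning to 1500 UMIs per cell, which leaves fewer counts, accounted for 11 of the 23. Members called then numbered 1 in cycling RGC-like cells, where 5.63% of all genes were called, and 2 in cycling IPC-like cells, where 5.95% were. They numbered 0 for the difference between these, against 0.142% of all genes. In non-cycling IPC-like against RGC-like cells they numbered 1, against 14.3% of all genes. They numbered 0 in deep-layer against upper-layer neuron-like cells and 1 in MGE interneuron-like against excitatory neuron-like cells, against 10.1% and 19.9%. In deep-layer against upper-layer neuron-like cells 1 was called with DESeq2 and 1 with the 5% mitochondrial limit, against 13.1% and 12.5% of all genes. In MGE interneuron-like against excitatory neuron-like cells 1 was called with the stricter gate, against 25.2%. The cause was not tested. The thinned *Ezh2* share in cycling RGC-like cells was 99.0%. Leaving out a library gave shares of 98.1 to 98.4% there and 87.8 to 91.1% in non-cycling RGC-like cells; no test remains with 1 library. Without the library block, 4 members were called in cycling IPC-like cells, against 13.6% of all genes. *Eed* was lost there (0.60, adjusted p = 0.0679), and no other call changed. Settings without *Ttr*-rich or *Cbx7*-rich cells were chosen after seeing the data. With DESeq2 the median of all genes shifted by 0.12 for CGE against MGE, 0.15 for deep-layer against upper-layer, and -0.14 for the difference of the cycling effect. Scaling and model were changed together.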
